A study of Rattus norvegicus with 19 samples.

Results

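miR-129 is a microRNA (miRNA) that the brain expresses far above most other tissues, and both of its arms were counted in rat plasma. The members are the 2 mature rows of the deposited miRNA table named rno-miR-129-5p and rno-miR-129-3p, out of 748 mature miRNA rows, and both were found. They were chosen by their UMI counts in the 4 groups, which were already known, so their levels, fold changes and arm ratio are given as a description, with no test. Tail-vein plasma was sampled from adult male Sprague-Dawley rats 2 days after surgery or injury, with 1 small RNA library per rat and 19 libraries in all. The Naive group (n = 4) received isoflurane anesthesia alone. The Sham group (n = 5) received anesthesia and a craniectomy without an impact. The Mild TBI (mTBI, n = 5) and Severe TBI (sTBI, n = 5) groups received the same craniectomy followed by a lateral fluid-percussion impact at a lower or a higher pressure, so these injured groups also carry whatever the craniectomy does. Sham-operated and injured rats also received buprenorphine and saline, and injured rats received more saline on the day after. The question of the study was whether plasma miRNAs tell mild injury from no injury and follow its severity.

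A miRNA is cut from a hairpin-shaped precursor, which leaves a duplex of 2 short strands named the 5p and the 3p arm. One strand is usually loaded into an Argonaute protein and kept, and the other is usually degraded, so the arms of 1 hairpin often differ in level. The loaded strand finds its target mRNAs mainly through its seed, bases 2 to 8. In neurons, miR-129-5p is known as a repressor of messages for ion channels and synaptic proteins, among them a potassium channel subunit in dendrites, and it takes part in the scaling of synaptic strength. Plasma carries miRNAs of many tissues, mostly bound to proteins or enclosed in vesicles. In plasma, more cells releasing a miRNA and more of it released per cell cannot be told apart.

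The rat genome holds 2 miR-129 hairpins, and their sequences show why the 5p counts cannot be assigned to either. In RefSeq (build GRCr8, a later build than the Rnor_6.0 of the submitters' processing notes), Mir129-1 lies at chr4:58589711-58589782 on the + strand and is 72 bases long. Mir129-2 lies at chr3:100657390-100657486 on the - strand and is 97 bases long. Both are annotated as miRNA genes. The hairpins follow 5′ to 3′, with the mature arms in capitals.
Mir129-1 hairpin: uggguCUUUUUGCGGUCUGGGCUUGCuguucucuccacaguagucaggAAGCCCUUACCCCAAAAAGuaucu
Mir129-2 hairpin: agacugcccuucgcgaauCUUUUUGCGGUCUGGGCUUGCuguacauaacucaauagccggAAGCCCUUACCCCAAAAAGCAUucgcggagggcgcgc
The arms are separated by 22 bases in Mir129-1 and by 21 bases in Mir129-2. The mature sequences follow with the seed in capitals.
rno-miR-129-5p: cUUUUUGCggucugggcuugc
rno-miR-129-1-3p: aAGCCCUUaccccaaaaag
rno-miR-129-2-3p: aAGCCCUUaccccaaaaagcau
The 5p sequence of 21 bases is the same in both genes, so its counts hold both. The 3p arms share their first 19 bases, and with them the seed. The Mir129-2 arm is annotated with 22 bases and the Mir129-1 arm with 19. The deposited table has a single row, miR-129-3p, where RefSeq names a 3p arm for each gene, and how reads of the 2 genes were assigned to that row is not given in the sources used here. Among 693 rat mature miRNA names in the RefSeq table, none other had the seed UUUUUGC of the 5p arm, and AGCCCUU was found only in the 2 miR-129 3p arms.

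The libraries carry unique molecular indices (UMIs), random tags by which reads copied from 1 molecule are counted once. A library held 16241433 to 21517763 reads and 2409545 to 5866757 UMIs of mature miRNAs. CPM are UMI counts per 1000000 mature miRNA UMIs of the library. On this scale, 4 libraries stood apart from the others on the first principal component, Naive 1 and 3 and mTBI 2 and 5, with scores from -30.0 to -26.8 against -3.40 to 20.45. They had 12.6 to 16.8 miRNA UMIs per UMI of the synthetic spike-in RNAs, against 5.53 to 9.37 in the other 15. Scaling by TMM, the trimmed mean of M-values, gave these 4 libraries factors of 0.680 to 0.792 and the others factors of 0.967 to 1.30. For that reason levels are given as plain CPM and, where it matters, as TMM-scaled CPM or per 1000000 spike-in UMIs. Different rats gave the libraries of a group, and no 2 libraries of a group agreed within sampling noise (chi-square per degree of freedom from 106 upward over 36 pairs). Hemolysis was seen as the log2 ratio of the erythrocyte miRNA miR-451-5p to miR-23a-3p. This ratio ranged from -3.81 to -2.63 in naive rats and from -3.83 to -1.29 in sham-operated controls. It was -3.47 to -1.91 after mTBI and -3.45 to -2.15 after sTBI.

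miR-129-5p was the more abundant arm and was highest after sTBI. It was counted at 32, 26, 20 and 43 UMIs in naive libraries 1 to 4, which is 6.35, 8.94, 4.89 and 14.9 CPM. In sham-operated controls 1 to 5 it had 30, 30, 35, 41 and 25 UMIs, or 9.03, 7.98, 9.65, 14.2 and 10.4 CPM. After mTBI it had 82, 58, 65, 60 and 53 UMIs, or 18.4, 13.7, 17.2, 17.7 and 9.03 CPM. After sTBI it had 269, 320, 282, 215 and 216 UMIs, or 94.3, 90.8, 78.7, 72.4 and 66.8 CPM. All 5 sTBI libraries lay above all libraries of the other groups, while the naive, sham and mTBI ranges overlapped on this scale. Of the 713 miRNAs with enough counts for a test, 9.82% had every sTBI library above every naive library, 2.81% every sTBI library above every sham library and 7.01% every sTBI library above every mTBI library. These shares are given as background, and nothing is read from them, since the same comparisons led to the choice of miR-129. The libraries with the lowest values in the naive and mTBI groups, Naive 3 and mTBI 5, were among the 4 that stood apart.

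In naive plasma, miR-129-5p had a mean level of 8.76 ± 4.40 CPM (SD, n = 4). The mean was 10.2 ± 2.38 CPM in sham plasma (SD, n = 5). It was 15.2 ± 3.90 CPM with mild injury (SD, n = 5) and 80.6 ± 11.8 CPM with severe injury (SD, n = 5). In CPM the order of the means was sTBI, mTBI, sham and naive. Sham and naive did not differ beyond their spread. The mTBI and sham libraries overlapped in CPM, where 3 of 5 mTBI libraries exceeded the highest sham library. In TMM-scaled CPM, all 5 mTBI libraries (13.3 to 17.4) were above the highest sham library (12.8), and 4 of 5 were above the highest naive library (14.7). Per 1000000 spike-in UMIs, all 5 mTBI libraries (114 to 231) were above the highest sham (103) and the highest naive library (108). Every mTBI library was above every sham library for 0.701% of the 713 miRNAs in TMM-scaled CPM, 0.982% per spike-in and 0.14% in CPM. Every mTBI library was above every naive library for 2.81% per spike-in and 2.1% in CPM. Whether mTBI plasma stood clear of the control plasma therefore depended on the scale, whereas sTBI plasma stood clear on all 3 scales. In TMM-scaled CPM every sTBI library was above every naive, sham and mTBI library for 7.85%, 2.66% and 5.05% of the 713 miRNAs, and per spike-in for 4.07%, 1.96% and 1.54%.

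miR-129-3p was scarcer and lay close to the limit of counting in the control plasma. It was counted at 13, 20, 8 and 14 UMIs in naive libraries 1 to 4, or 2.58, 6.88, 1.96 and 4.84 CPM. In sham-operated controls 1 to 5 it had 9, 7, 22, 12 and 22 UMIs, or 2.71, 1.86, 6.07, 4.16 and 9.13 CPM. After mTBI it had 23, 12, 27, 22 and 10 UMIs, or 5.17, 2.84, 7.14, 6.49 and 1.70 CPM. After sTBI it had 49, 50, 66, 33 and 31 UMIs, or 17.2, 14.2, 18.4, 11.1 and 9.59 CPM. The naive, sham and mTBI ranges overlapped, and the lowest sTBI library was just above the highest sham library. At the lowest count of 7 UMIs, the exact 95% Poisson interval was 2.81 to 14.4 UMIs, and at 66 UMIs it was 51.0 to 84.0. In 7 of the 19 libraries the table holds no miRNA count from 1 to 9, and mTBI 5, with 10 UMIs of this arm, is one of them. Its value thus stands at the lowest count above 0 in its library.

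For miR-129-3p the mean of the naive libraries was 4.06 ± 2.25 CPM (SD, n = 4). Sham plasma had 4.79 ± 2.91 CPM and mTBI plasma 4.67 ± 2.34 CPM (SD, n = 5 each), and the mean of the sTBI libraries was 14.1 ± 3.79 CPM (SD, n = 5). Naive, sham and mTBI did not differ beyond their spread. All 5 sTBI libraries exceeded all libraries of each other group in CPM and in TMM-scaled CPM. Per 1000000 spike-in UMIs, 4 of 5 sTBI libraries exceeded the highest mTBI library (62.4 to 136 after sTBI, at most 65.3 after mTBI). By rank of the median CPM among 748 miRNAs, where 1 is the most abundant, the 5p arm stood at 472 in naive rats and 203 after sTBI, and the 3p arm at 619 and 416.

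**Figure D1:**
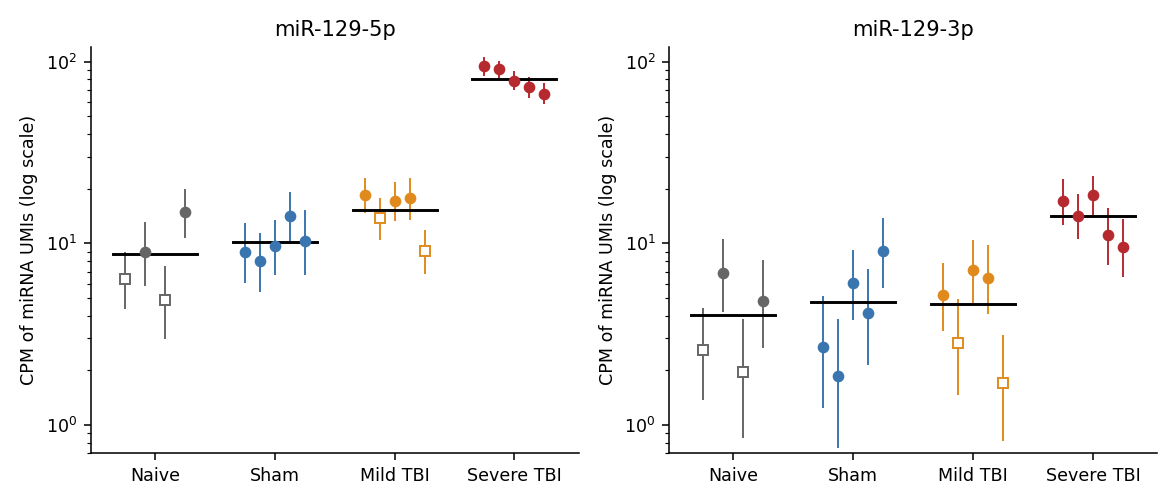
CPM of miR-129-5p (left) and miR-129-3p (right) in each plasma library on a log scale, by group. Points are libraries in the order of their replicate numbers, bars are exact 95% Poisson intervals that cover counting error only, lines are group means, and open squares are the 4 libraries that stood apart. The sTBI libraries lie at 66.8 to 94.3 CPM for the 5p arm and at 9.59 to 18.4 CPM for the 3p arm, above all others.

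Fold changes were taken from 1 edgeR fit to all 713 miRNAs with enough counts, with TMM factors and the 4 groups. Both arms passed the filter on low counts. For miR-129-5p, the log2 fold change was 2.92 (SE 0.21) in sTBI against naive rats, 2.91 (SE 0.19) against sham-operated controls and 2.13 (SE 0.18) against mTBI, which are 7.57-fold, 7.51-fold and 4.39-fold. In mTBI it was 0.79 (SE 0.21) against naive and 0.78 (SE 0.19) against sham, which are 1.72-fold and 1.71-fold. In sham against naive it was 0.01 (SE 0.21). The comparisons share groups with each other, so these values are not independent. Among the 713 miRNAs ordered by log2 fold change from the highest, the 5p arm was at rank 6 in sTBI against naive, rank 3 in sTBI against sham and rank 3 in sTBI against mTBI. In mTBI it was at rank 35 against naive and rank 31 against sham.

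miR-129-3p was also higher after sTBI, by less. Its log2 fold change was 1.54 (SE 0.35) in sTBI against naive, 1.53 (SE 0.33) against sham and 1.37 (SE 0.32) against mTBI, from 2.58-fold to 2.92-fold. In mTBI it was 0.18 (SE 0.38) against naive and 0.17 (SE 0.35) against sham, both smaller than their SE, and in sham against naive it was 0.01 (SE 0.39). The median log2 fold change over all 713 miRNAs lay between -0.05 and 0.04 in the 6 comparisons. The SE of the 3p arm was larger than that of the 5p arm in all 6 comparisons.

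**Figure D2:**
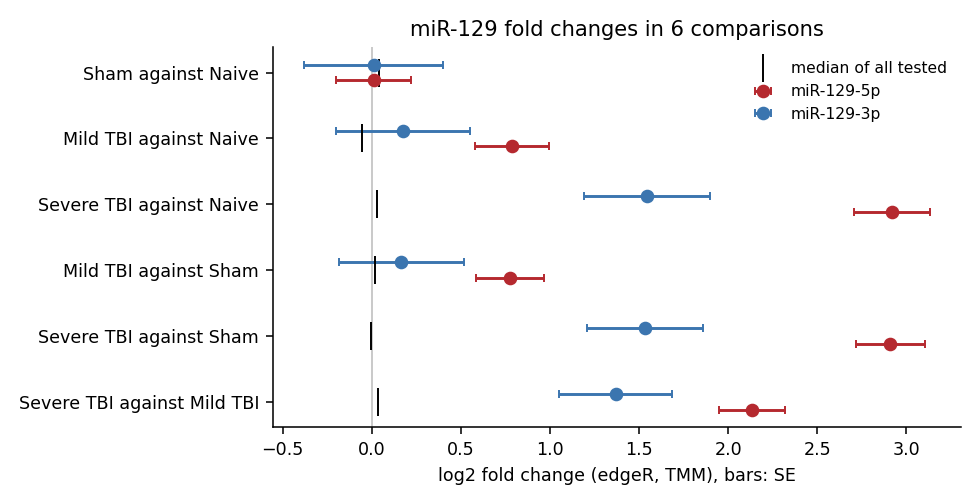
Log2 fold changes of both miR-129 arms in the 6 comparisons of groups (edgeR with TMM factors). Circles are estimates, bars are 1 SE, and black ticks are the median of all 713 miRNAs tested. The 5p arm lies at 2.13 to 2.92 and the 3p arm at 1.37 to 1.54 in the 3 comparisons with sTBI.

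The 2 rows did not move in proportion, and the share of the 5p arm was highest after sTBI. The 5p row holds both genes, and how 3p reads of the 2 genes were assigned is not given. Share and ratio therefore compare 2 rows, which may not hold the arms of the same hairpins. In naive libraries 1 to 4, the 5p arm made 71.1, 56.5, 71.4 and 75.4% of the miR-129 UMIs. In sham-operated controls 1 to 5 it made 76.9, 81.1, 61.4, 77.4 and 53.2%. After mTBI it made 78.1, 82.9, 70.7, 73.2 and 84.1%, and after sTBI 84.6, 86.5, 81.0, 86.7 and 87.4%. The sTBI libraries were above all naive libraries, while sham and mTBI libraries reached into the sTBI range. Among 219 miRNAs with both arms counted, miR-129 included, 4 (1.83%) had a 5p share that was higher in every sTBI than in every naive library. The shares rest on 28 to 57 UMIs of both arms in a naive library and on 247 to 370 in an sTBI library. The exact 95% binomial interval of Naive 3, with the fewest UMIs, was therefore wide, from 51.3 to 86.8%, and that of sTBI 2 was from 82.6 to 89.8%. These intervals cover counting error only.

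As a ratio, 2.33 ± 0.743 (SD, n = 4) UMIs of the 5p arm were counted per UMI of the 3p arm in naive rats. Sham plasma had a ratio of 2.75 ± 1.33 and mTBI plasma 3.77 ± 1.27 (SD, n = 5 each). The ratio in sTBI plasma was 5.93 ± 1.07 (SD, n = 5). The lowest sTBI ratio was 4.27 (sTBI 3) and the highest naive ratio 3.07 (Naive 4). The highest ratios of the other groups, 4.29 in Sham 2 and 5.30 in mTBI 5, exceeded the lowest sTBI ratio, and 4 of 5 sTBI libraries were above each of them. Within mTBI, the highest ratios were those of mTBI 2 (4.83) and mTBI 5 (5.30), both among the 4 libraries that stood apart. The ratios of mTBI 1, 3 and 4 were 3.57, 2.41 and 2.73. The mean log2 ratio (with 0.5 added to both counts) was 1.12 ± 0.52 (SD, n = 4) in naive and 1.26 ± 0.79 (SD, n = 5) in sham plasma, and 1.81 ± 0.48 with mild and 2.53 ± 0.28 with severe injury (SD, n = 5 each). A ratio within a library does not depend on the library's scaling. With read counts, which include PCR copies, the mean log2 ratios were 0.87, 1.01, 1.79 and 2.62 in the same order. Reads and UMIs come from the same molecules, and the part of PCR copying in the ratio was not tested. There were 1.75 ± 0.36 (SD, n = 19) reads per UMI for the 5p arm and 1.90 ± 0.39 (SD, n = 19) for the 3p arm. By group, the mean for the 5p arm was 1.58, 1.71, 1.78 and 1.90 in naive, sham, mTBI and sTBI. For the 3p arm it was 1.94, 2.04, 1.81 and 1.79. Mean reads per UMI were thus higher for the 3p arm in naive rats and for the 5p arm after sTBI. Without the 4 libraries that stood apart, the mean log2 ratio was 1.497 in mTBI, the lowest of 3 alternatives. In naive rats it was 0.978, the highest of 3 but also below the mean of all naive libraries, 1.12. That value came from Naive 2 and Naive 4 alone. Sham and sTBI lose no library there. The mTBI mean thus rests in part on mTBI 2 and 5.

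**Figure D3:**
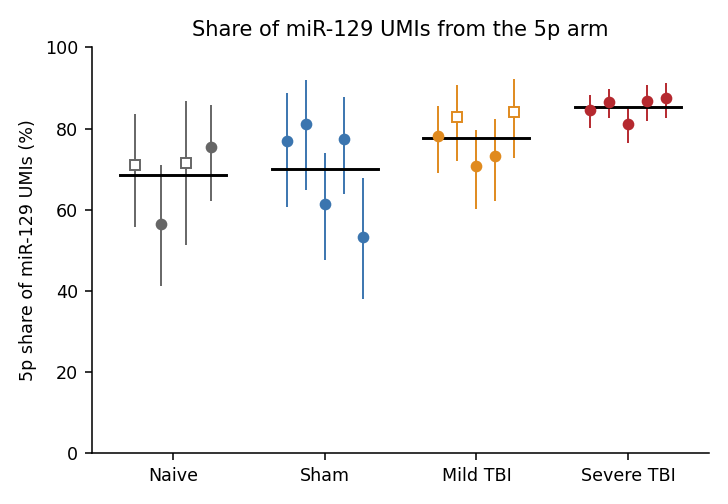
Share of miR-129 UMIs that came from the 5p arm in each library, in percent, by group. Points are libraries, bars are exact 95% binomial intervals, lines are group means, and open squares are the 4 libraries that stood apart. The 5 sTBI libraries lie between 81.0 and 87.4%, above the 4 naive libraries at 56.5 to 75.4%.

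To place this ratio, all 219 miRNAs with a 5p and a 3p row and a mean of at least 10 UMIs in each were described in the same way. The 5p arm of miR-129 made 75.8% of the pair on average over the libraries, and the median over the 219 pairs was 55.2%. The log2 ratio of miR-129 was 1.41 higher in sTBI than in naive rats, and the median difference over the pairs was -0.10. A larger rise was found in 4 pairs, miR-134, miR-338, miR-1193 and miR-3064, and 13 pairs had a larger change in either direction. Members of the imprinted Dlk1-Dio3 cluster, which is active in brain, lay on both sides of 0, with 1.42 for miR-134 and 1.18 for miR-379 but -3.29 for miR-323, -2.29 for miR-434, -1.95 for miR-487b and -1.10 for miR-411. miR-9a, another miRNA of neurons and their progenitors, had a difference of the opposite sign, with a log2 ratio 1.66 lower after sTBI (-1.66). The spread of the miR-129 log2 ratio within groups was 0.552, larger than in 142 of the 219 pairs (median 0.440). This spread was 0.349 for miR-134, 1.05 for miR-338, 1.71 for miR-1193 and 1.95 for miR-3064. For miR-1193 and miR-3064 it exceeded the rise itself, which was 1.52 and 1.45. These are values of libraries that also chose miR-129, and no test was made.

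**Figure D4:**
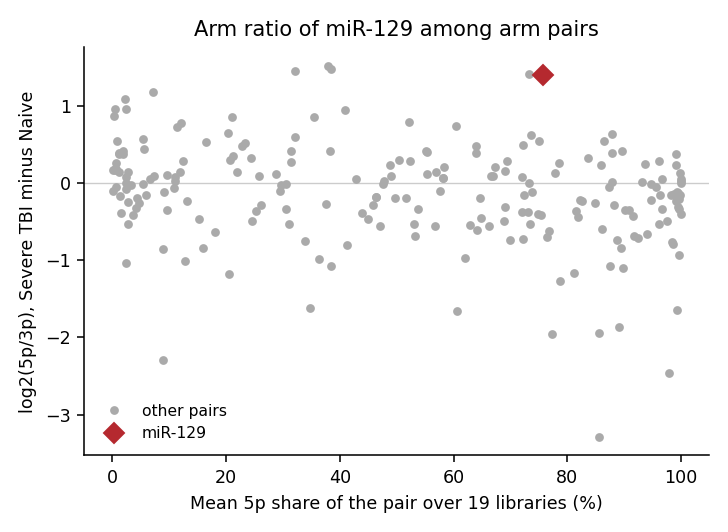
Difference in the mean log2 ratio of 5p to 3p UMIs between sTBI and naive rats (vertical axis) against the mean 5p share of the pair in percent (horizontal axis), for 219 miRNAs with both arms counted. Each point is a pair. miR-129 (diamond) lies at 75.8% and 1.41, and 4 points lie higher.

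Differences between rats of the same group did not choose miR-129, so the arms could be compared within groups. After the group means of log2(CPM + 1) were removed, Pearson's r between the arms was 0.68 over 19 libraries (permutation test within groups, 100000 shuffles, two-sided, p = 0.00568, adjusted p = 0.00689 over the 2 coefficients) and Spearman's rho was 0.68 (permutation p = 0.00689, adjusted p = 0.00689). Without the 2 libraries farthest from the median of the 5p arm, mTBI 5 and Naive 4, r was 0.67 (permutation p = 0.0176). The relation no longer passed without the 4 libraries that stood apart (r = 0.28, permutation p = 0.44, n = 15). It also did not pass with TMM-scaled CPM (r = 0.37, permutation p = 0.16), where the factors lift those 4 libraries. In CPM both arms of a library share their denominator, and the shuffles did not keep that link. The permutation test therefore cannot separate a relation of the arms from the shared denominator. All 4 libraries were below their group mean in both arms, and the relation rests on them and on the scale.

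**Figure D5:**
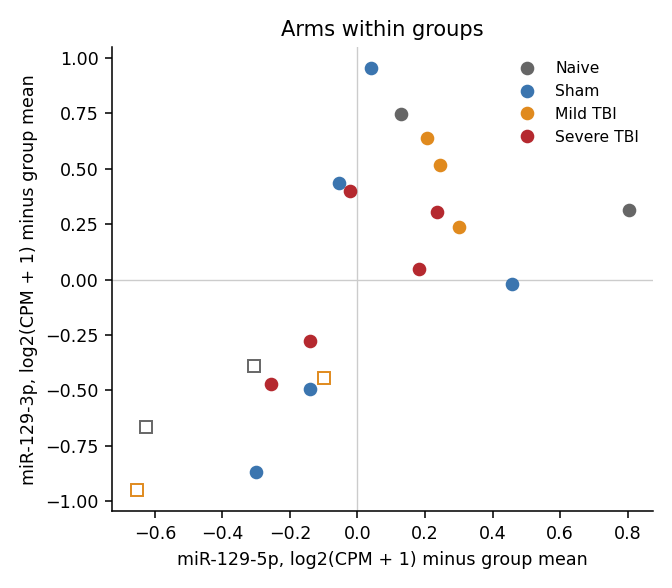
Deviation of miR-129-3p from its group mean against that of miR-129-5p, both in log2(CPM + 1), for 19 libraries. Points are coloured by group, and open squares are the 4 libraries that stood apart. All 4 squares lie below 0 on both axes, and Pearson's r is 0.68 with them and 0.28 without them.

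The miRNAs whose CPM followed miR-129 most closely over the 19 libraries differed between the arms. By Pearson's r of log2(CPM + 1), the 5 closest to the 5p arm were miR-9a-3p (0.945), miR-9a-5p (0.944), miR-323-3p (0.937), miR-434-3p (0.891) and miR-384-5p (0.868). Its own 3p arm came next, with r = 0.852. The 4 closest to the 3p arm were miR-873-3p (0.918), miR-667-3p (0.899), miR-873-5p (0.889) and miR-668 (0.888), and the 5p arm was the fifth. As background, miR-323, miR-434, miR-667 and miR-668 lie in the Dlk1-Dio3 cluster. With the group means removed, r was 0.45 to 0.58 for the first list and 0.79 to 0.84 for those 4. The libraries share groups and CPM denominators, so these coefficients describe the data and no p is given.

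Other brain-enriched miRNAs were tested in the same fit as a list of 52 names without miR-129, of which 50 were in the table and 49 had enough counts. The list was written with earlier results of these data known, so its share of calls is not independent of them. In sTBI against naive rats, 6 of the 49 rose and none fell (edgeR's quasi-likelihood test, Benjamini-Hochberg adjustment over all 713 miRNAs, threshold 0.05), which is 12.2%. Over all miRNAs 4.35% were higher and 0.561% lower. The median log2 fold change of the list was 0.26, and that of all miRNAs was 0.03. The 6 were both arms of miR-9a together with miR-384-5p, miR-137-3p, miR-873-3p and miR-219a-2-3p. miR-9a-3p rose from 6.72 ± 1.87 (SD, n = 4) to 145 ± 39.2 CPM (SD, n = 5), a log2 fold change of 4.11 (SE 0.32, edgeR adjusted p = 2.6e-09). miR-384-5p, a neuronal miRNA that acts at dendritic spines, had 1.22 (SE 0.23, edgeR adjusted p = 0.00173). miR-137-3p, a regulator of neuronal maturation, had 1.08 (SE 0.23, edgeR adjusted p = 0.00530). miR-219a-2-3p comes from a hairpin whose 5p arm is abundant in oligodendrocytes, the myelin-forming cells, and had 0.94 (SE 0.24, edgeR adjusted p = 0.0259). The point estimate of miR-129-5p, 2.92, lay between those of miR-9a-3p (4.11) and miR-9a-5p (2.40). Without the 4 libraries that stood apart, 3 of the list were called, miR-384-5p and both arms of miR-9a, and with spike-in totals the same 3. Over all miRNAs, 11 were called without those 4 libraries, and the count with spike-in totals is given below.

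Against sham-operated controls, 5 of the 49 rose after sTBI and none fell (10.2%, against 1.82% higher and 0.281% lower of all miRNAs), 3 were called without Sham 1 or without Sham 2, and 8 without the 4 libraries that stood apart. For all miRNAs that comparison gave 9 to 16 calls with 1 library left out and 8 to 23 under the 11 alternatives. Against mTBI, 6 rose and none fell (12.2%, against 2.95% and 0.281%). With spike-in totals 2 were called there, both arms of miR-9a. Without the 4 libraries that stood apart 3 were called, both arms of miR-9a and miR-132-3p, which was not among the 6. Of all miRNAs, 10 were called without those 4 libraries, the lowest of 10 to 32 under the 11 alternatives. In mTBI against naive, miR-9a-3p and miR-9a-5p rose (4.08% of the list, against 2.38% of all miRNAs), and miR-9a-3p alone was called of the list without Naive 1 or without the 4 libraries that stood apart. Calls over all miRNAs there were 12 to 16 with 1 library left out and 3 without those 4 libraries. In mTBI against sham, miR-9a-3p rose with a log2 fold change of 1.66 (SE 0.27, edgeR adjusted p = 0.00262), the only miRNA called of all 713 (0.14%). In sham against naive, miR-488-3p fell by 1.54 on the log2 scale (SE 0.28, edgeR adjusted p = 0.00165), and no list member rose (of all miRNAs, 2.1% were higher and 0.281% lower). Without the 4 libraries that stood apart, none was called in that comparison. Without Naive 4, a second member, miR-338-5p, was called there.

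Levels of miRNAs from other sources were set beside these values. Striated muscle miRNAs, 15 rows of the table, summed to 425 to 1496 CPM in naive rats, 2538 to 10697 in sham-operated controls, 2871 to 6909 after mTBI and 1993 to 2563 after sTBI. Their sum was thus higher in all 3 groups with a craniectomy than in naive rats, whereas the sham and naive ranges of miR-129 overlapped. Of 13 muscle miRNAs tested, edgeR called 5 higher in sham against naive (38.5%, median log2 fold change 1.74, against 2.1% of all miRNAs) and 6 higher in mTBI against naive (46.2%, median 1.08, against 2.38%). In sTBI against naive, 1 was called higher (7.69%, median 1.00, against 4.35%). In sTBI against mTBI, 2 were called lower (15.4%, median -0.89, against 0.281%), and none was called in the other 2 comparisons. The 8 erythrocyte rows summed to 166359 to 352744 CPM in naive rats and 202171 to 352780 after sTBI, and the 6 liver rows to 27270 to 140371 and 32715 to 87510 CPM. Among the erythrocyte rows, miR-16-5p had a mean of 723312 UMIs per library and miR-451-5p 6829, so that sum says little about miR-451-5p. The 10 leukocyte rows summed to 52621 to 130201 CPM in naive rats and 94473 to 111216 after sTBI. None of the 8 erythrocyte, 6 liver or 9 leukocyte miRNAs tested was called in any of the 6 comparisons by edgeR. An unadjusted p under 0.05 was found in 11 of those 138 tests (7.97%) and in 14.4% of the tests over all miRNAs. All 6 liver miRNAs had a log2 fold change below 0 in sTBI. The medians were -0.86 against naive, -0.22 against sham and -0.54 against mTBI. All 6 were also below 0 in these comparisons with RLE factors and with spike-in totals. With total counts 5, 5 and 4 of the 6 were below 0. DESeq2 made 2 calls, both among the leukocyte miRNAs. No erythrocyte or liver row was at 0 in any group, and the muscle row at 0 in all naive, mTBI and sTBI libraries was miR-206-5p. The part of these sources in the miR-129 values was not tested. With the hemolysis ratio as a covariate, the log2 fold change of miR-129-5p in sTBI against naive was 2.85 and that of miR-129-3p was 1.55.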

How the data were processed

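Small RNA libraries of rat plasma were prepared with the QIASeq miRNA kit, 1 per rat. The authors trimmed reads with cutadapt, dropped short inserts and short UMIs, aligned with Bowtie in sequence to miRBase (version 21) and other RNA classes of Rnor_6.0, and deposited UMI counts and read counts without normalization. The versions of cutadapt and Bowtie are not given in the sources used here. UMI counts of 748 mature miRNA rows were used, with spike-in counts as an alternative scale; piRNA, tRNA and other RNA rows were not used. The members and lists were chosen with earlier results of these data known. Groups came from the sample labels.

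miRNAs were filtered with filterByExpr (minimum count 10), which left 713. All 19 libraries were fitted together in edgeR 4.0.16 (R 4.3.3, limma 3.58.1) with TMM factors and the robust quasi-likelihood test (15 residual degrees of freedom), and p-values were adjusted by Benjamini-Hochberg at 0.05 over the 713 miRNAs in each of 6 comparisons. SE was the log2 fold change divided by the square root of F. Descriptive values, exact intervals and permutations used Python 3.11.15 with numpy 2.4.6, pandas 2.3.3 and scipy 1.17.1, and figures matplotlib 3.10.9. The steps were tested on simulated data. Alternatives were read counts, no filter, RLE factors, total counts, spike-in totals, DESeq2 1.42.0, a hemolysis covariate, a replicate block, fits of 2 groups, counts under 10 set to 0, other pseudocounts, and leaving out each library or the 4 that stood apart; for the arm ratio the last was added after seeing the data. Named were the 5 miRNAs most like each arm, up to 6 brain list members with the smallest p in sTBI against naive and those called in any comparison, up to 10. The arm pairs named beside miR-129 were chosen after their values were seen. Totals of 2409545 to 5866757 miRNA UMIs per library limit the precision of each level.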

Additional observations from a re-analysis of the deposited data

How the results depend on the processing

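The log2 fold change of miR-129-5p in sTBI was 2.61 to 3.22 against naive, 2.77 to 2.98 against sham and 1.81 to 2.41 against mTBI under 11 alternatives. Against naive it was 3.22 with total counts and 2.61 without the 4 libraries that stood apart, and against mTBI 2.41 with total counts and 1.81 with spike-in totals. Total counts and spike-ins moved the median of all miRNAs in sTBI against naive to 0.36 and -0.20, and relative to the median miR-129-5p lay at 2.86 to 2.93. In sham against naive miR-129-5p was -0.31 without those 4 libraries. In mTBI it was 0.56 to 0.92 against naive and 0.57 to 0.96 against sham under the 11 alternatives. The 3p arm in sTBI was 1.10 to 1.84 against naive, 1.25 to 1.88 against sham and 1.04 to 1.62 against mTBI. In mTBI the 3p arm was -0.10 to 0.42 against naive and -0.03 to 0.51 against sham.

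Leaving out 1 library gave 5p values of -0.15 to 0.27 (sham against naive), 0.64 to 1.07 (mTBI against naive), 2.77 to 3.19 (sTBI against naive), 0.70 to 0.91 (mTBI against sham), 2.83 to 3.06 (sTBI against sham) and 2.07 to 2.19 (sTBI against mTBI). For the 3p arm they were -0.28 to 0.23, -0.01 to 0.40, 1.37 to 1.75, -0.05 to 0.45, 1.31 to 1.82 and 1.20 to 1.56. Counts of all miRNAs called were 10 to 41, 12 to 16, 15 to 64, 1 to 2, 9 to 16 and 16 to 28, and of the brain list 1 to 2, 1 to 2, 4 to 9, 1 to 1, 3 to 6 and 5 to 6. The mean log2 arm ratio was 0.97 to 1.37, 1.06 to 1.52, 1.68 to 1.95 and 2.47 to 2.64 in naive, sham, mTBI and sTBI, and Pearson's r of the arms within groups 0.59 to 0.75.

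Against 17 miRNAs called in sham against naive, spike-in totals gave 11, DESeq2 44, the fit of 2 groups 9, and the fit without the 4 libraries 0 by edgeR. In mTBI against naive (17) total counts gave 10, the fit of 2 groups 11 and the fit without the 4 libraries 3. In sTBI against naive (35) read counts gave 21, spike-in totals 15, DESeq2 67 and the fit without the 4 libraries 11. In mTBI against sham (1) DESeq2 gave 4 and the fit of 2 groups 2. In sTBI against sham (15) total counts gave 8 and DESeq2 23, and in sTBI against mTBI (23) spike-in totals gave 14 and the fit without the 4 libraries 10. Brain list counts were 0 without the 4 libraries in sham against naive; 1 with total counts, the fit of 2 groups and without the 4 libraries in mTBI against naive; 3 with spike-in totals, 11 with DESeq2 and 3 without the 4 libraries in sTBI against naive; 3 with total counts, 8 with DESeq2 and 8 without the 4 libraries in sTBI against sham; and 2 with spike-in totals and 3 without the 4 libraries in sTBI against mTBI. The arms within groups had r = 0.374 with TMM factors (permutation p = 0.16) and 0.28 without the 4 libraries (permutation p = 0.44). The fit without the 4 libraries also has fewer naive and mTBI rats, so its counts come from smaller groups. The causes were not tested.

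Replicate numbers did not pair the libraries (mean correlation of deviations 0.00892 for 27 pairs of the same number, -0.00162 for 108 others), and with the replicate block 11 miRNAs were called in sham against naive and 22 in sTBI against naive. With 7 to 22 UMIs of miR-129-3p in the control libraries, counting error limits the 3p level and the arm ratio there.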
